A study of Mus musculus with 4 samples.

Results

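Dopamine and melatonin are the paired day and night signals of the retina. Genes for dopamine synthesis, transport and receptors and for melatonin synthesis and receptors were compared between objective day and subjective day in posterior mouse eyes. The set held 10 genes chosen by name, namely *Th*, *Ddc*, *Slc6a3*, *Slc18a2*, *Drd2*, *Drd4*, *Drd5*, *Aanat*, *Mtnr1a* and *Mtnr1b*. Of these, 9 were among the 22863 genes of the deposited table, *Mtnr1b* had no row, and 8 had values high enough to be tested.

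All mice were C3H/f+/+, a melatonin-proficient strain without the *Pde6b* allele behind the retinal degeneration of other C3H mice and without *rd8*. They were kept in a light-dark cycle before the experiment, and their age at RNA-seq is not given in the sources used here. The 2 subjective day samples came from mice held in darkness for 18 hours (another passage of the study gives a longer time for subjective day) and taken at circadian time 6, and the 2 objective day samples came from mice that saw light in the morning, spent 1 hour in darkness and were taken at zeitgeber time 6. Each sample pooled 4 eyes, from a female and a male, and held retina, retinal pigment epithelium (RPE), choroid and posterior sclera, so that no gene can be assigned to a cell type from these data, and fewer cells of a type cannot be told apart from less RNA per cell.

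Retinal dopamine is made by a sparse class of amacrine cells, inner retinal interneurons, and is released mostly in the light. It reaches photoreceptors and inner neurons by diffusion. Melatonin is made by photoreceptors at night, and each signal opposes the other: melatonin restrains dopamine release, and dopamine acts through D4 receptors on photoreceptors to restrain cyclic AMP, on which melatonin synthesis depends.

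The values were fractional gene counts. Their near-equal totals are those of counts adjusted to a common library size, a step that the sources used here do not state, and 1 unit is close to 1 read. Totals lay between 33278417 and 35236783, which is not the sequencing depth, and relative depth judged from the lowest values lay between 89.1% and 107.0% of the mean. Of the 17784 genes that reached 10 in 2 or more samples, 1514 (8.51%) differed at an adjusted p under 0.05 in limma's test on log2(value + 1), 189 of them higher and 1325 lower in objective day. After upper-quartile scaling the split was 402 higher and 1241 lower, after quantile normalization 401 and 1211, and after scaling to rod markers 20 and 2733. With the trend of the values with transcript GC content removed, 107 genes were higher and 116 lower, and with a replicate block as well, 876 were higher and 707 lower. Markers of the retina were present in each sample, with summed levels of 1907000 to 2409000 for the 5 rod markers and 27470 to 28740 for the 6 amacrine markers, and 4 of the 5 RPE markers lay between 4077 and 32558 while *Best1* lay between 0 and 9.70. Other tissue was present as well. Summed over 5 markers each, ocular surface epithelium stood at 2965 and 5430 in objective day and at 10370 and 10850 in subjective day, and lens at 39980 and 33370 in the samples numbered 1 and at 10410 and 4312 in those numbered 2. The 3 blood markers found of 5 listed summed to 1939 and 2198 in objective day and to 1234 and 1395 in subjective day.

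Of the 8 tested genes, 2 fell in objective day and none rose at an adjusted p under 0.05. The background was 8.51% of all genes called in either direction, 7.45% lower and 1.06% higher. The genes that fell were *Slc18a2*, the vesicular monoamine transporter, and *Drd4*, the D4 dopamine receptor. *Th*, the rate-limiting enzyme of dopamine synthesis, had the largest difference in the other direction and stopped just short of the threshold. In 6 of the 8 genes the conditions did not overlap, 3 higher and 3 lower in objective day, compared with 56.1% of all genes tested (27.9% higher and 28.2% lower). The median log2 fold change of objective day over subjective day was 0.08 across the 8 genes and 0.01 across all genes tested. For any single gene the smallest p of a two-sided exact permutation test on 4 samples is 0.333, and the calls therefore depend on limma's pooling of variance over genes.

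**Figure D1:**
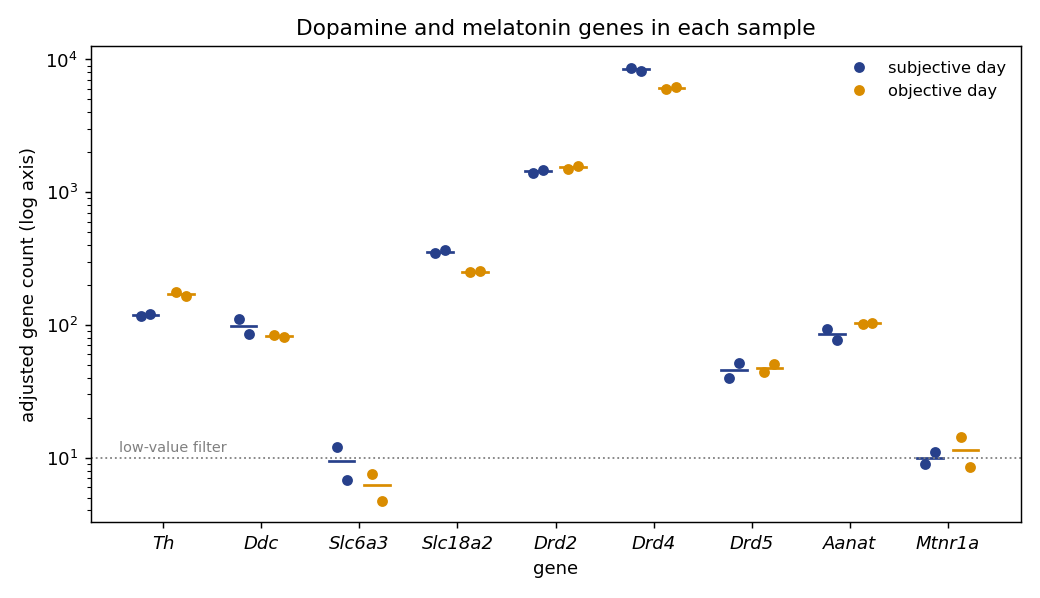
Adjusted gene counts (log axis) of the 9 genes found in the table, with a point for each sample, a line at the mean of each condition and a dotted line at the value of 10 used as a filter. The objective day points of *Th* (177 and 166) lie above the subjective day points (116 and 121), those of *Slc18a2* and *Drd4* lie below, and *Slc6a3* and *Mtnr1a* scatter around the filter.

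Promoter sequences are shown for *Th*, *Slc18a2* and *Drd4*, the 3 genes with the largest log2 fold changes among the 8 tested genes of the set. They are the 250 bases before the RefSeq start on GRCm38.p6, read 5′ to 3′ on the strand of the gene, from chr7:142899996-142900245 (minus strand) for *Th*, chr19:59260628-59260877 (plus strand) for *Slc18a2* and chr7:141291768-141292017 (plus strand) for *Drd4*. Capitals mark a match to any of 4 motifs, each searched on both strands: the cyclic AMP response element TGACGTCA, the E-box CACGTG bound by clock proteins, the EGR motif GCGNGGGCG and the CRX motif TAATCC.
Th: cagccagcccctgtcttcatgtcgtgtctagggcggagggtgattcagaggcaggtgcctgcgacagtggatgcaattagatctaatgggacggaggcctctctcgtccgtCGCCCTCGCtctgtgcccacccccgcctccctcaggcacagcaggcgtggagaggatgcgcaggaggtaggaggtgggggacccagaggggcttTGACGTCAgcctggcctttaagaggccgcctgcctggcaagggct
Slc18a2: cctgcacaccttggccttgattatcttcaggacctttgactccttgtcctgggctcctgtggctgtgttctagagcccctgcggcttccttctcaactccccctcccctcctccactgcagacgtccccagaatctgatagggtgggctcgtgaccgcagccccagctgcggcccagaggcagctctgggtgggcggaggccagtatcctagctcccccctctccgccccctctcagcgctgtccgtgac
Drd4: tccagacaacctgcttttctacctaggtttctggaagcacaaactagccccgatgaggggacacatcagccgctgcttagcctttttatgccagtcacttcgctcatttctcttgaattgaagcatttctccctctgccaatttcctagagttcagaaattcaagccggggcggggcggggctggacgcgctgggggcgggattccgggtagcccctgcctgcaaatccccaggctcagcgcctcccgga
The *Th* promoter held the cyclic AMP response element from 45 to 38 bases before the start and an EGR match on the other strand from 139 to 131 bases before it. Among 32851 promoters of this length, 1.55% held the cyclic AMP response element, 4.7% the EGR motif, 6.02% the E-box and 6.25% the CRX motif. These letters were not found in the *Slc18a2* and *Drd4* windows. Of the other genes with a RefSeq promoter, *Slc6a3* held an E-box from 197 to 192 bases and *Mtnr1a* from 207 to 202 bases before the start. A RefSeq promoter was found for 9 of the 10 genes, the exception being *Aanat*.

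*Th* (ENSMUSG00000000214), at positions 142892752 to 142931128 of chromosome 7 of GRCm38 (minus strand), encodes tyrosine hydroxylase and marks the dopaminergic amacrine cells. Its values were 116 and 121 in the subjective day samples and 177 and 166 in the objective day samples. The objective day samples were the higher ones, with no overlap, and the samples of a condition lay close together. Mean values were 172 ± 7.45 (SD, n = 2) for objective day against 118 ± 3.45 (SD, n = 2) for subjective day, with a log2 fold change of 0.53 (standard error 0.14, 95% interval 0.21 to 0.86, limma adjusted p = 0.0587). The difference was 44.7% on this scale and did not pass the threshold. Counting error alone is about 8.24% per sample at this level. *Th* passed in 2 of 16 alternative settings (adjusted p from 0.0323 to 0.336), and its log2 fold change ran from 0.30 (scaled to rod markers, adjusted p = 0.336) to 0.61 (quantile normalization).

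*Ddc* (ENSMUSG00000020182), at positions 11814101 to 11898144 of chromosome 11 (minus strand), encodes the decarboxylase that converts L-DOPA to dopamine and also acts in serotonin synthesis, the route that leads to melatonin. Its values were 111 and 85.7 in subjective day against 84.2 and 81.2 in objective day. The objective day samples were lower without overlap, but the lower subjective day sample lay only just above them. The log2 fold change was -0.23 (95% interval -0.68 to 0.21, limma adjusted p = 0.487), and it ran from -0.42 to -0.05 with each sample left out in turn. Per *Ddc* count there were 1.05 and 1.41 *Th* counts in subjective day against 2.1 and 2.05 in objective day. This and the other ratios of genes given here were chosen after the values were seen and have no test.

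*Slc18a2* (ENSMUSG00000025094), at positions 59260896 to 59296012 of chromosome 19 (plus strand), encodes VMAT2, which loads dopamine and other monoamines into vesicles. Its values were 347 and 367 in subjective day against 250 and 254 in objective day. Both objective day samples lay well below both subjective day samples, within the samples numbered 1 (log2 difference -0.47) as within those numbered 2 (-0.53). The mean fell from 357 ± 13.5 (SD, n = 2) to 252 ± 2.71 (SD, n = 2), a log2 fold change of -0.50 (standard error 0.10, 95% interval -0.74 to -0.26, limma adjusted p = 0.0274). The level fell by 29.2%. The call was lost without objective day sample 1 (adjusted p = 0.129), without objective day sample 2 (0.123) and without subjective day sample 2 (0.0646), with a variance prior that does not follow the mean (0.126), and when the trend with GC content was removed (log2 fold change -0.45, adjusted p = 0.0945), within a range of 0.0118 to 0.129 over 16 alternatives. With the GC trend removed and the replicate number as a block together, *Slc18a2* was past the threshold (adjusted p = 0.0164). The log2 fold change stayed between -0.73 and -0.45.

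The ratio of *Th* to *Slc18a2* counts within a sample does not depend on the scaling between samples. It was 0.333 and 0.329 in subjective day against 0.706 and 0.654 in objective day, a log2 difference of 1.04. This ratio joins the largest rise and the largest fall among the tested genes of the set, so it is no added evidence. The GC trend was not removed from it, and the transcripts differ in GC content (54.1% for *Th*, 47.2% for *Slc18a2*). *Slc18a2* shares 111 exonic bases (2.1%) with the antisense gene *Gm29261*, and no exonic overlap with another gene was annotated for *Th*.

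*Slc6a3*, on chromosome 13, encodes the plasma membrane dopamine transporter that takes dopamine back up. It was too low to judge. Its values were 12.0 and 6.78 in subjective day against 7.60 and 4.75 in objective day, which overlapped, and only 1 sample reached the value of 10 set for testing. Counting error alone is about 35.8% per sample at this level.

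*Drd4* (ENSMUSG00000025496), at positions 141292006 to 141296464 of chromosome 7 (plus strand), encodes the D4 receptor, an inhibitor of adenylyl cyclase found on photoreceptors. It had the highest values of the set, 8684 and 8118 in subjective day against 6041 and 6242 in objective day. The conditions were far apart relative to the spread within each. The mean fell from 8401 ± 400.1 (SD, n = 2) to 6142 ± 143 (SD, n = 2), a log2 fold change of -0.45 (standard error 0.064, 95% interval -0.60 to -0.30, limma adjusted p = 0.00813). The level fell by 26.9%. The log2 difference was -0.52 within the samples numbered 1 and -0.38 within those numbered 2. *Drd4* remained past the threshold in 15 of 16 alternatives, with log2 fold changes from -0.68 to -0.40 and adjusted p values from 2.22e-05 to 0.13. The exception was the variance prior that does not follow the mean expression, under which limma called 0 of all genes (3586 genes had an unadjusted p under 0.05).

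Across all genes tested, differences between the conditions went with transcript GC content (Spearman correlation 0.583 over genes, which are not independent replicates), lower GC content going with lower values in objective day. The *Drd4* transcript has a GC content of 57.8%, and with the GC trend removed its log2 fold change was -0.56 (limma adjusted p = 0.0139). For *Th* (54.1% GC) the value with the trend removed was 0.44 (adjusted p = 0.208), and for *Slc18a2* (47.2% GC) it is given above. *Drd4* was then the only gene of the set past the threshold, compared with 1.27% of all genes in either direction and 0.661% lower. With the replicate number as a block in the same fit, *Drd4* and *Slc18a2* were past it, compared with 9.03% of all genes in either direction and 4.03% lower.

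*Drd2* (ENSMUSG00000032259), at positions 49340627 to 49408177 of chromosome 9 (plus strand), encodes the D2 receptor, which also serves as the autoreceptor of dopaminergic cells. Its values were 1404 and 1475 in subjective day against 1500 and 1588 in objective day. The objective day samples were higher without overlap, by a margin smaller than the spread within either condition. The log2 fold change was 0.10 (95% interval -0.06 to 0.26, limma adjusted p = 0.393), which was 0.0021 with the GC trend removed (adjusted p = 0.995) and turned to -0.13 when samples were scaled to rod markers. With each sample left out in turn it ran from 0.06 (without objective day sample 2) to 0.14 (without objective day sample 1), and it was 0.07 without subjective day sample 1. *Drd4* counts were 6.19 and 5.51 times those of *Drd2* in subjective day against 4.03 and 3.93 times in objective day.

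*Drd5* (ENSMUSG00000039358), at positions 38319367 to 38322518 of chromosome 5 (plus strand), encodes a D1-like receptor that stimulates adenylyl cyclase. Its values were 39.9 and 51.8 in subjective day against 44.4 and 50.7 in objective day. The conditions overlapped, and the log2 fold change of 0.06 (95% interval -0.51 to 0.63, limma adjusted p = 0.908) changed its sign in 5 of 16 alternatives, among them removal of the GC trend and scaling to rod markers. Its single exon shares 48.6% of its bases with the antisense gene *Gm26560*, and because the strand setting of the counting is not given in the sources used here, reads of the pair cannot be told apart.

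*Aanat* (ENSMUSG00000020804), at positions 116586432 to 116597680 of chromosome 11 (plus strand), encodes the acetyltransferase whose night-time activity sets the melatonin rhythm. Both time points here lie in the day. Its values were 92.9 and 76.7 in subjective day against 102 and 103 in objective day, without overlap. The log2 fold change was 0.28 (standard error 0.18, 95% interval -0.13 to 0.69, limma adjusted p = 0.367), and did not pass the threshold in any of 16 alternatives, where adjusted p ran from 0.213 to 0.896. It was 0.14 without subjective day sample 2 and 0.42 without subjective day sample 1. The interval corresponds to a level in objective day between 0.912 and 1.62 times that in subjective day. With the GC trend removed the log2 fold change was 0.15, and with samples scaled to rod markers 0.05, the *Aanat* transcript having a GC content of 60.0%.

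The melatonin receptors could not be judged. *Mtnr1a* (ENSMUSG00000054764), at positions 45069137 to 45088506 of chromosome 8 (plus strand), encodes the MT1 receptor. Its values were 8.99 and 11.0 in subjective day against 14.2 and 8.55 in objective day. The samples overlapped and passed the filter by a single sample of each condition. The log2 fold change was 0.14 with a 95% interval from -0.91 to 1.19 (limma adjusted p = 0.879), which spans levels from 0.533 to 2.27 times that of subjective day. Counting error alone is about 30.4% per sample. *Mtnr1b*, which encodes the MT2 receptor on the minus strand of chromosome 9, had no row and no value.

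Per kilobase of annotated exon, *Drd4* stood highest with a mean over the 4 samples of 2151, followed by *Drd2* with 585.7. Next came *Th* with 61.3, *Slc18a2* with 58.3 and *Aanat* with 56.4, whose ranges overlapped, so that their order was not resolved over all samples. *Ddc* followed with 20.3, *Drd5* with 14.8, *Mtnr1a* with 5.22 and *Slc6a3* with 2.25, and the ranges of these neighbours did not overlap. Within conditions, *Slc18a2* stood above *Th* in subjective day (68.3 ± 2.59 against 50.03 ± 1.46, SD, n = 2) and below it in objective day (48.3 ± 0.52 against 72.6 ± 3.15, SD, n = 2). Lengths were the union of all GENCODE exons of a gene, which for *Ddc* came to 4461 bases.

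**Figure D2:**
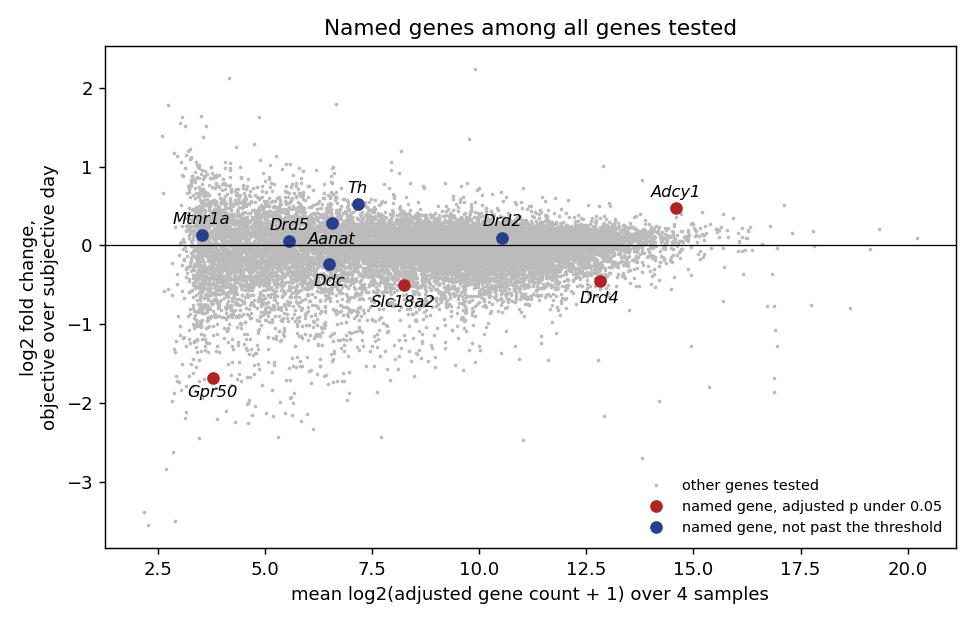
Log2 fold change of objective over subjective day against mean log2(adjusted gene count + 1) for the 17784 genes tested (grey), with the 8 tested genes of the set and 2 pathway genes past the threshold named. *Drd4* (-0.45) and *Adcy1* (0.47) lie at high counts, where the spread of other genes is narrow, and *Mtnr1a* (0.14) lies at low counts, where it is wide.

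The wider pathway held 29 listed names, of which 27 were in the table (*Drd1* appears under its older symbol *Drd1a*, and *Drd3* has no row) and 25 were tested. Of these 25 genes, 1 rose and 1 fell at an adjusted p under 0.05, beside the 8.51% called among all genes. The gene that fell, *Gpr50*, entered the test only through the condition in which it was high, so its place in this count supports nothing further. With no filter on low values its limma adjusted p was 0.0379, within the range over alternatives given with its values. In all, the conditions did not overlap in 15 (56.1% of all genes). Their median log2 fold change was -0.04.

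The gene that rose was *Adcy1*, which encodes an adenylyl cyclase stimulated by calcium and calmodulin and known from work on the retina as a target of D4 receptor signalling. Its values were 21337 and 20741 in subjective day against 28926 and 29474 in objective day. The conditions differed far beyond the spread within each, with a log2 fold change of 0.47 (standard error 0.072, 95% interval 0.30 to 0.64, limma adjusted p = 0.0101). The call was lost without objective day sample 1 (adjusted p = 0.0513), without objective day sample 2 (0.0759), with the GC trend removed (log2 fold change 0.39, adjusted p = 0.0597), when samples were scaled to rod markers (0.24, adjusted p = 0.141) and with the variance prior that does not follow the mean (0.126), within a range of 0.000267 (GC trend removed under a replicate block) to 0.141 over 16 alternatives. The count of *Drd4* per count of *Adcy1* was 0.407 and 0.391 in subjective day against 0.209 and 0.212 in objective day. *Npas2*, a clock transcription factor of the same D4 pathway, was nearly level, with values of 139 and 142 against 147 and 144 and an adjusted p of 0.847 from limma's test. Its log2 fold change was 0.05, and -0.02 with the GC trend removed.

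*Gpr50* encodes an orphan receptor related to the melatonin receptors that does not bind melatonin. Its values were 22.0 and 25.4 in subjective day against 6.61 and 6.69 in objective day. The log2 fold change was -1.69 (standard error 0.38, limma adjusted p = 0.0374). Both objective day samples lay below the value of 10 used as a filter, and counting error alone is about 26% per sample. *Gpr50* therefore entered the test only through subjective day, where it was high, and its calls here support nothing further. The call was lost without objective day sample 1 (adjusted p = 0.122), without objective day sample 2 (0.107), with the GC trend removed (0.0963) and with the variance prior that does not follow the mean (0.126), within a range of 0.016 to 0.126 over 14 alternatives, and the gene could not be tested with either subjective day sample left out. With the GC trend removed under a replicate block *Gpr50* passed (adjusted p = 0.0201). The ocular surface epithelium markers, which had 4 of 4 tested genes past the threshold in the same direction, were lower in objective day along with *Gpr50*, *Slc18a2* and *Drd4*, and the summed rod and blood markers were higher within samples of the same number along with *Th* and *Adcy1*, as were the melanocyte markers (13570 and 11160 in objective day, 10210 and 9580 in subjective day, summed over 4 of 4, mostly *Dct*, with none past the threshold and *Tyr* at a log2 fold change of -0.15) and the sympathetic or adrenal markers (6747 and 6244 in objective day, 5977 and 4875 in subjective day, summed over 3 of 5, nearly all of it *Chga*, with *Dbh* between 6.74 and 10.5). *Krt12*, the other ocular surface epithelium marker listed, was too low to test and overlapped. Its values were 1.78 and 12.5 in objective day against 3.99 and 7.67 in subjective day. The part of all these markers in these results was not tested.

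Genes that make tetrahydrobiopterin, the cofactor of tyrosine hydroxylase, did not pass the threshold, except *Pts* under a replicate block (limma adjusted p = 0.034). *Gch1*, the rate-limiting enzyme of this route, had values of 88.9 and 84.3 in subjective day against 98.2 and 113 in objective day (log2 fold change 0.28, 95% interval -0.12 to 0.68, limma adjusted p = 0.347). *Pts*, the next enzyme, had values of 687 and 614 against 570 and 502 (log2 fold change -0.28, limma adjusted p = 0.138), and the log2 fold change was 0.10 with the GC trend removed. The objective day samples were higher for *Gch1* and lower for *Pts*, without overlap. *Spr*, which completes the cofactor, was at 672 and 609.7 in subjective day against 744 and 675 in objective day (log2 fold change 0.15). *Qdpr*, which regenerates it, was at 1639 and 1507 against 1432 and 1490 (log2 fold change -0.11). Neither overlapped, and *Qdpr* shares 18.6% of its exonic bases with an antisense gene. *Gchfr*, a regulator of *Gch1*, overlapped between conditions.

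Genes of dopamine breakdown and of noradrenaline synthesis did not pass either. *Maoa*, a monoamine oxidase, was at 506 and 541 in subjective day against 462 and 501 in objective day, without overlap (log2 fold change -0.12, limma adjusted p = 0.456). The direction turned with the GC trend removed (log2 fold change 0.27, adjusted p = 0.227, or 0.0629 with the replicate number as a block). *Maob* and *Slc18a1* overlapped. *Dbh*, which converts dopamine to noradrenaline, was too low to test, with values from 6.74 to 10.5.

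*Drd1a*, the D1 receptor, was at 1046 and 1066 in subjective day against 1012 and 1008 in objective day (log2 fold change -0.06, 95% interval -0.22 to 0.09, limma adjusted p = 0.599). The conditions did not overlap, but the difference was small, and the log2 fold change was 0.03 with the GC trend removed. *Adcy5*, an adenylyl cyclase of striatal dopamine signalling, was at 2149 and 2344 in subjective day against 2415 and 2411 in objective day, without overlap (log2 fold change 0.10, and -0.02 with the GC trend removed). *Ppp1r1b* and *Gnal* overlapped. In the indole branch, *Tph2*, a tryptophan hydroxylase, was at 47.9 and 42.2 in subjective day against 33.1 and 33.5 in objective day without overlap (log2 fold change -0.42, limma adjusted p = 0.314). *Tph1*, the form that feeds melatonin synthesis, overlapped, with values from 22.8 to 38.0. *Asmt*, the last enzyme of melatonin synthesis, was too low to test at 2.00 and 2.22 in subjective day against 4.73 and 3.81 in objective day.

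The 7 amacrine genes listed, which mark or specify the class of cell that includes the dopaminergic cells, had log2 fold changes between -0.14 and 0.16, and none passed the threshold, except *Slc32a1* under a replicate block (limma adjusted p = 0.0434). *Slc32a1*, the vesicular transporter of GABA, was at 3278 and 3254 in subjective day against 3658 and 3646 in objective day (log2 fold change 0.16, limma adjusted p = 0.129), and 24.9% of its exonic bases are shared with the antisense gene *Gm14205*. With the GC trend removed its log2 fold change was 0.02. *Gad2*, which makes GABA, was at 1875 and 1970 in subjective day against 1787 and 1707 in objective day, without overlap (log2 fold change -0.14, and 0.03 with the GC trend removed). *Pax6*, a transcription factor of these cells, was at 9833 and 9524 against 10279 and 9967, also without overlap (log2 fold change 0.06). *Nr4a2*, a transcription factor of dopaminergic neurons, overlapped with values from 274 to 302. When samples were scaled to the amacrine markers, a setting chosen after seeing the data, the log2 fold changes of *Th* and *Slc18a2* were 0.53 (adjusted p = 0.0566) and -0.50 (limma adjusted p = 0.0245). Scaled to rod markers, also chosen after seeing the data, they were 0.30 (adjusted p = 0.336) and -0.73 (limma adjusted p = 0.0119), with the median of all genes at -0.21.

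**Figure D3:**
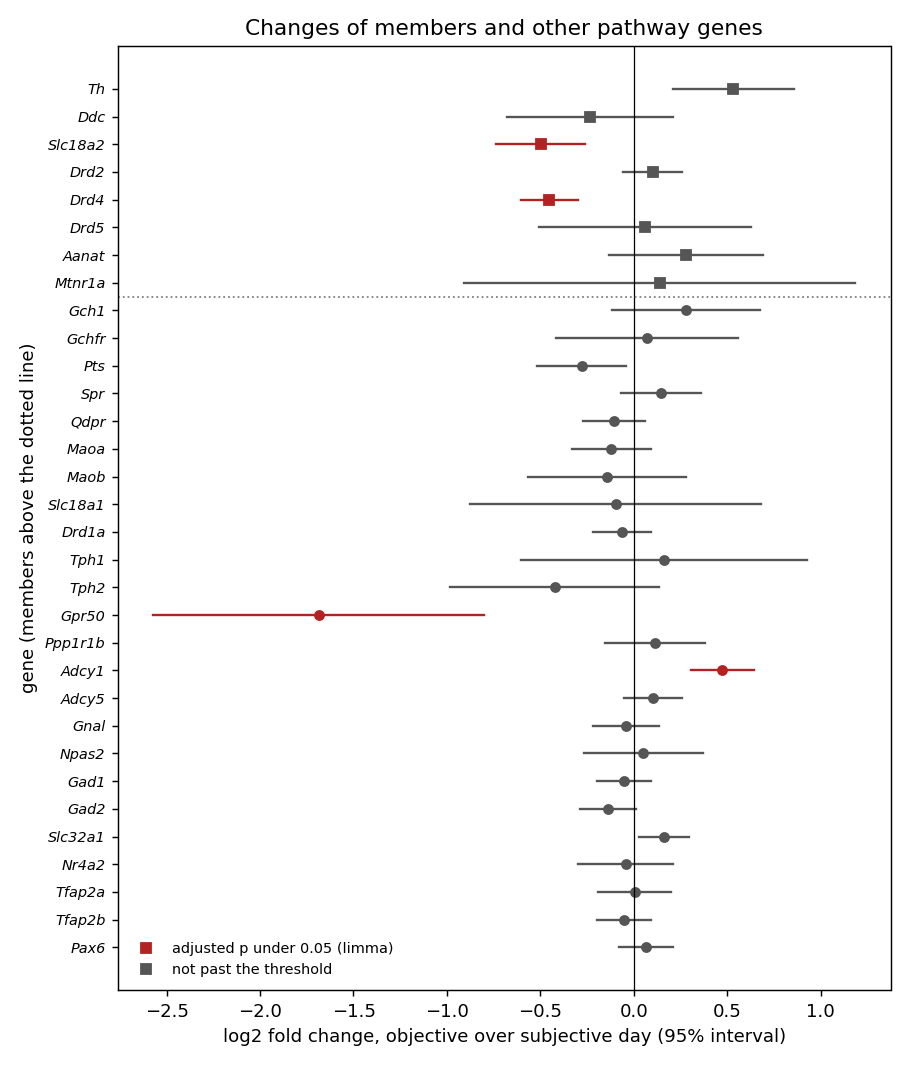
Log2 fold change of objective over subjective day with its 95% interval from limma for the 8 tested genes of the set (squares) and the tested pathway genes (circles, 1 of which is not shown), in red where the adjusted p was under 0.05. *Slc18a2* (-0.50), *Drd4* (-0.45), *Gpr50* (-1.69, which entered the test only through subjective day, where it was high) and *Adcy1* (0.47) are red, and the intervals of *Mtnr1a*, *Tph1* and *Slc18a1* are among the widest.

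**Figure D4:**
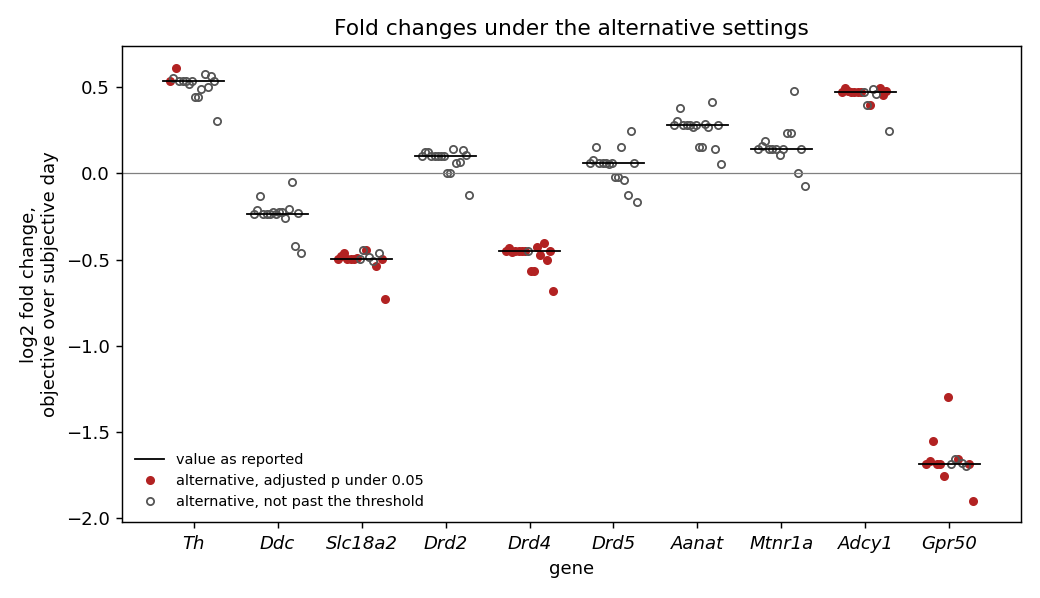
Log2 fold change of each tested gene of the set, *Adcy1* and *Gpr50* under every alternative that gave a value (14 or 16 per gene), filled red where the adjusted p was under 0.05, with a line at the reported value. *Drd4* stays between -0.68 and -0.40 and *Slc18a2* between -0.73 and -0.45, and the points of *Drd5* lie on both sides of 0.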

How the data were processed

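Poly-A RNA from 4 samples was sequenced on a single lane with single 50-base reads. Per the paper's methods and the submitters' processing notes, the authors aligned the reads to mouse Ensembl release 72 with TopHat2 2.0.9 and Bowtie2 2.1.0, used HTSeq for counts per gene and edgeR for the comparison. The strand setting, filter and normalization are not given in the sources used here. The signal the authors deposited is a fractional count per gene and its totals are nearly equal, which is the form of counts adjusted to a common library size, although the sources used here do not say so. It is no raw count, so no test for raw counts was used. Whole reads could not be recovered in all 4 samples. The authors' columns of fold changes, mean abundance and p-values were not used, and 0 columns of sample values were left unused.

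Genes that reached 10 in 2 or more samples were compared on log2(value + 1) by limma 3.58.1 (R 4.3.3), which understates changes of low genes. Fold changes are objective over subjective day. The variance prior followed the mean expression, and p-values were adjusted by Benjamini-Hochberg over all genes tested at a threshold of 0.05. The fit was run on simulated counts in which 200 genes were changed. The simulated samples were independent and had no GC trend, unlike these data, so the run does not show how well the calls here hold. The genes and lists were chosen with earlier results of these data known. All 10 genes of the set are named, and of the pathway lists each tested gene past the threshold or without overlap is given with its values, except that 1 gene counted there is not reported by name. Other pathway genes, which overlapped or were too low, are named in addition, chosen after their values were seen. No gene is named for a pattern like that of another, since 4 samples are too few. Positions, exonic lengths and GC content came from GENCODE M21 on GRCm38, the assembly of the authors' Ensembl release, with a GC content for 98.6% of tested genes. Local regression with a span of 0.3 took out each sample's GC trend, and with it any biology that goes with GC content. Scaling to amacrine or rod markers was added after seeing the data. Counting errors are approximate and cover counting alone. Alternatives covered scaling, filter, pseudocount, variance prior, GC content, replicate block and each sample left out. Figures were drawn with matplotlib 3.10.9.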

Additional observations from a re-analysis of the deposited data

How the results depend on the processing

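With 2 samples per condition, depth limits low genes such as *Slc6a3*, *Mtnr1a*, *Gpr50*, *Dbh* and *Asmt*. Over 16 alternatives the number of all genes called, 1514 as reported, was 3613 with the replicate number as a block, 223 with the GC trend removed, 2753 scaled to rod markers (chosen after seeing the data, which shifted the median of all genes to -0.21) and 0 with a variance prior not following the mean (limma, 3586 genes at an unadjusted p under 0.05). It ran from 674 to 2778 with each sample left out, lowest without objective day sample 2 and highest without subjective day sample 1, and was 775 without objective day sample 1. Genes of the set called, 2 as reported, were 3 with the block and 3 after quantile normalization (*Th* in addition), 1 with the GC trend removed, 0 with that variance prior and 1 to 2 with each sample left out. Pathway genes called, 2 as reported, were 4 with the block (*Pts* and *Slc32a1* in addition), 0 with the GC trend removed, 0 with that variance prior and 0 to 1 with each sample left out. Among all genes tested, calls higher in objective day, 189 as reported, were 1282 with the block and 401 after quantile normalization. Calls lower in objective day, 1325 as reported, were 2331 with the block and 1211 after quantile normalization. The added calls of *Th*, *Pts* and *Slc32a1* therefore came in settings that also called more genes higher in general. The cause was not tested. Samples with the same number deviated together across genes (correlation 0.319), which is a hint from the data, as the labels do not say that numbers mark a shared day or batch. With the replicate block *Th* passed the threshold (adjusted p = 0.0323 from limma's test, log2 fold change 0.53), as it did after quantile normalization (0.039). Direction reversed for *Drd5* with the GC trend removed, without and with the replicate block (-0.0208), and with each sample left out its log2 fold change ran from -0.13 (without subjective day sample 1) to 0.24, with -0.04 without objective day sample 2. It also reversed when scaled to rod markers (-0.17), as did *Drd2* (-0.13) and *Mtnr1a* (-0.0736). *Th*, *Ddc*, *Slc18a2*, *Drd4*, *Aanat*, *Adcy1* and *Gpr50* kept their direction in every alternative that gave a value. Without a subjective day sample *Gpr50* was not tested.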
